A study of Mus musculus with 192 samples.

Results

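The level of 9 genes was followed through 9 mouse tissues, namely Nr3c1, which encodes the glucocorticoid receptor, 6 genes that the receptor is known to regulate (Fkbp5, Tsc22d3, Sgk1, Zbtb16, Dusp1 and Klf9) and the metallothionein genes Mt1 and Mt2. They were picked by gene symbol, and each of the 9 symbols matched 1 of the 54752 genes in the deposited table. The values come from 184 of 192 RNA-seq libraries of the MHU-3 mission, in which wild-type (WT) and Nrf2-knockout (Nrf2-KO) C57BL/6 mice (C57BL/6J in the study's methods), given as 12 weeks old in the labels, were flown to the International Space Station (FL) or kept on the ground as controls (GC). In the study's methods the mice had reached that age when ready for launch, so the flown mice were older when dissected after the return. The Nrf2-KO mice lack functional Nrf2, the transcription factor encoded by Nfe2l2, in every cell.

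The 4 groups GC_WT, FL_WT, GC_KO and FL_KO had 6 mice each. Flight mouse 04, an Nrf2-KO mouse found ill on return, was left out as the study did, so FL_KO had 5 mice. White fat of the epididymis (eWAT), interscapular brown fat (iBAT), liver (Liv), thymus (Thy), temporal bone (TpB), cerebrum (Cbr) and spleen (Spl) were measured in all of these mice. Mandible bone (MdB) and kidney (Kid) were measured in 3 mice a group, with 2 FL_KO mice in MdB. Flight mice were dissected in California after the return and ground mice later in Japan. Flight therefore cannot be told apart from place, date, landing and transport. A number used in both flight and ground names 2 separate animals.

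Glucocorticoids are steroid hormones of the adrenal cortex whose secretion follows the time of day and rises with stress. The hormone binds the receptor Nr3c1 in the cytoplasm, where Hsp90 and its partners hold it, and the complex enters the nucleus and binds response elements in DNA. Among its targets, Fkbp5 encodes an Hsp90 partner that lowers the receptor's affinity for hormone. Tsc22d3 (GILZ) encodes an anti-inflammatory protein, Sgk1 a kinase of ion transport, Zbtb16 (PLZF) a zinc finger repressor, Dusp1 a phosphatase that switches off MAP kinases, and Klf9 a Krüppel-like transcription factor. Mt1 and Mt2 encode small cysteine-rich proteins that bind zinc and copper. Their promoters answer to the zinc sensor Mtf1 through metal response elements, and glucocorticoids, oxidants and fasting are known to raise them.

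Mt2 and Mt1 lie side by side on chromosome 8. In the GENCODE vM21 gene models on GRCm38, Mt2 spans bases 94172664 to 94173568 and Mt1 spans bases 94179082 to 94180327, both on the plus strand. Their promoters are shown because the metallothioneins are the members for which control sequences next to the start are best known. The 250 bases before each RefSeq start on GRCm38.p6 are printed 5′ to 3′, with matches to the core of the metal response element (TGCACNC or TGCGCNC) and to the core of the antioxidant response element (TGACNNNGC) on either strand in capitals.
Mt2, chr8:94172368-94172617, plus strand: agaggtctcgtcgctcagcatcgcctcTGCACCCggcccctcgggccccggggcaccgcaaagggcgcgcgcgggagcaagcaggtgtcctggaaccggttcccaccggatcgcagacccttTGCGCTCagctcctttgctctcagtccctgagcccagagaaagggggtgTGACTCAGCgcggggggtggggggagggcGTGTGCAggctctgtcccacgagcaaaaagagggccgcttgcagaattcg
Mt1, chr8:94178839-94179088, plus strand: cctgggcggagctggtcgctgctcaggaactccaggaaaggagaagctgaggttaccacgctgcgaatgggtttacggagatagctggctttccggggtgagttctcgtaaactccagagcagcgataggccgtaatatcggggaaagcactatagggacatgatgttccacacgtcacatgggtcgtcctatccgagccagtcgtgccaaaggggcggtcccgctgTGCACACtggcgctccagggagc

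Counted from the start, the Mt2 window held metal response cores at positions -223 to -217 (TGCACCC), -128 to -122 (TGCGCTC) and -50 to -44 (GTGTGCA, a match on the other strand) and an antioxidant response core at -79 to -71. The Mt1 window held 1 metal response core, at -23 to -17 (TGCACAC). Bases after the RefSeq starts used were not searched, so these counts do not compare the whole promoters of the genes. A metal response core was present in 21.4% of 32851 such windows over all genes and an antioxidant response core in 10.2%, so neither match is rare. Of the other members with a window, Dusp1 held an antioxidant response core, 1 of the 6 Sgk1 starts (chr10:21993640-21993889) held the full receptor element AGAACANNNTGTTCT, which 3 of the 32851 windows held, and Fkbp5 and Klf9 held none of these motifs. The receptor core AGAACA or its complement TGTTCT occurred in 16.1% of windows, in 3 of the 6 Sgk1 windows and in 1 of the 3 Tsc22d3 windows. These matches are descriptions of letters and not of binding.

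Depth, in units of 1e6 expected counts a library, was 13.1 to 16.3, and 8.01 to 10.6 in Thy, whose libraries were made from ribosome-depleted total RNA while all others used poly(A) RNA. Nfe2l2 was lower in every Nrf2-KO library than in every WT library of the same tissue. In Cbr it stood at 3.72 to 6.39 against 13.8 to 18.1 TPM, where TPM is a share of all transcripts corrected for transcript length. In Spl the genotypes lay much closer, at 60.4 to 67.8 TPM in Nrf2-KO and 73.1 to 86.7 TPM in WT libraries. Tissue markers were present where the labels name the tissue, but TpB also held much skeletal muscle (summed marker level 401 to 29187 TPM), and its osteoblast markers were at 729 to 2663 TPM against 48938 TPM or more in MdB. Cbr libraries carried cerebral neuron markers at 4739 to 5881 TPM and cerebellar markers at 69.8 to 97.0 TPM. In iBAT the skeletal muscle markers reached 7353 TPM in a FL_WT library and 8998 TPM in a FL_KO library but 42.5 TPM at most in GC_WT. In bulk tissue, fewer cells of a type and less RNA per cell cannot be told apart.

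Each of the 9 genes was detected in each of the 184 libraries, and the order of tissues differed between most of them. The correction for transcript length allows levels to be compared between genes of the same library. Between libraries, a TPM value is a share of that library's transcripts, so it also depends on the other transcripts and on library preparation. The receptor gene Nr3c1 had the smallest ratio of highest to lowest library, from 11.9 TPM in a MdB library to 79.5 TPM in a Thy library. In GC_WT mice it was highest in Thy (59.2 ± 7.51 TPM, SD, n = 6), eWAT (56.7 ± 5.06) and Spl (54.7 ± 3.06), whose ranges overlapped. Spl did not overlap the next tissue, Cbr (39.9 ± 5.54), and the lowest level was in MdB (14.7 ± 1.41, n = 3).

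The order of tissues was not the same for the receptor and its targets. Thy, with the highest mean of Nr3c1, had the lowest mean of Sgk1 (9.73 ± 0.724 TPM), Dusp1 (6.07 ± 0.642) and Klf9 (5.12 ± 0.798), although its libraries were made another way and its levels stand on another footing. Fkbp5, Tsc22d3 and Zbtb16 were highest in eWAT of GC_WT mice, Fkbp5 at 56.0 to 119.7 TPM with a median of 105, Tsc22d3 at 297 ± 52.1 TPM and Zbtb16 at 80.1 ± 29.5 TPM. The range of each overlapped that of the next tissue in order. Klf9 was highest in Cbr (148 ± 23.4 TPM), where the lowest library, at 133 TPM, was above every GC_WT library of the other tissues. Sgk1 was highest in MdB (164 ± 9.91 TPM, n = 3) and overlapped Cbr (103 ± 41.8). Zbtb16 had the largest ratio of highest to lowest library of the 9 genes, from 0.240 TPM in a MdB library to 125 TPM in an eWAT library.

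The metallothioneins were highest in bone, brain and fat. Mt1 reached 927 ± 235 TPM in MdB (n = 3), 702 ± 106 in Cbr, 671 ± 136 in eWAT, 611 ± 215 in TpB and 438 ± 111 in iBAT of GC_WT mice, with ranges that overlapped between neighbours in this order. A gap separated these tissues from Kid (134 ± 7.52 TPM, n = 3), and a further gap separated Kid from Liv (79.1 ± 23.2) and Spl (51.7 ± 8.21). Thy was lowest, at 30.2 ± 4.51 TPM. Mt2 followed the same order of tissues at a lower level, from 215 ± 74.6 TPM in MdB to 6.74 ± 2.24 TPM in Thy.

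**Figure D1:**
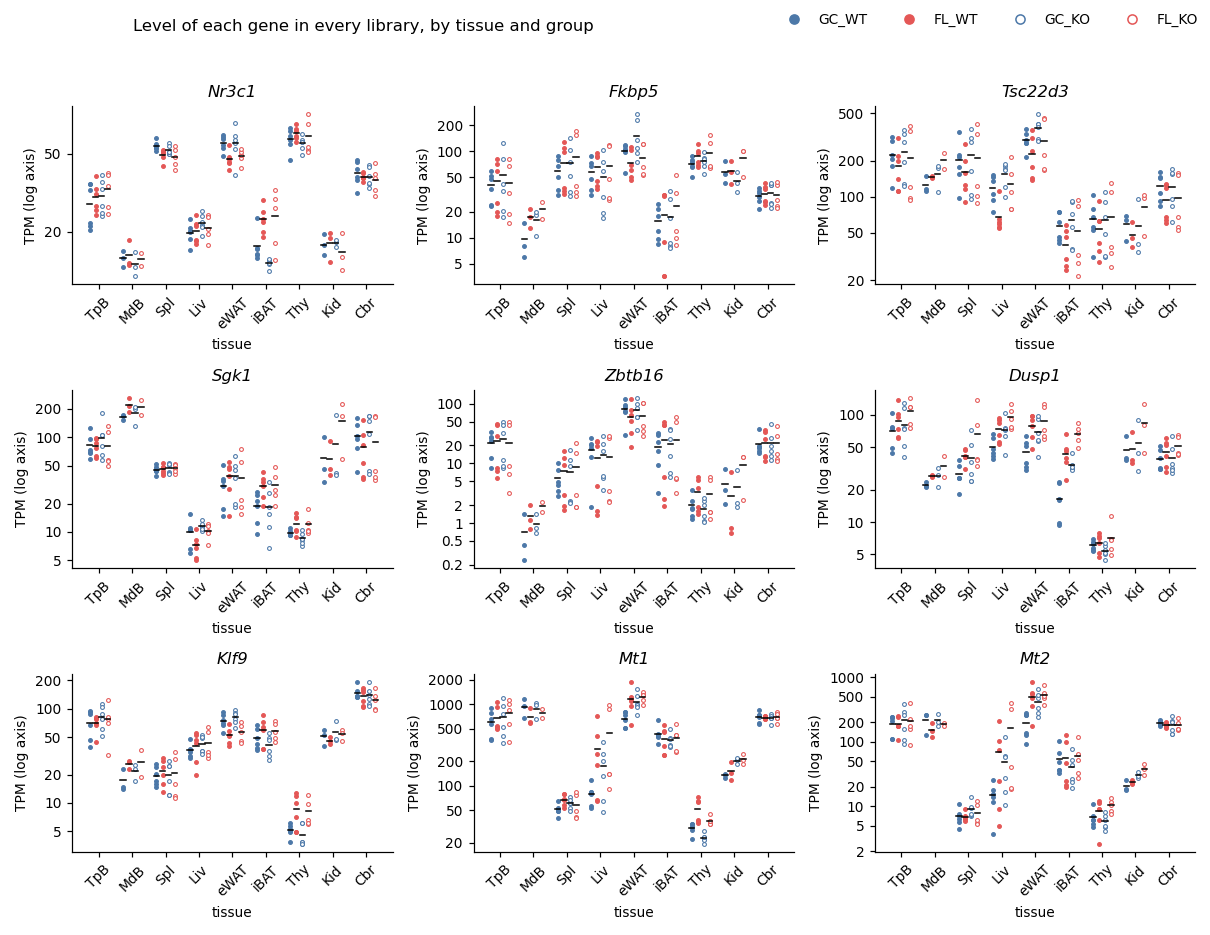
TPM of each of the 9 genes (vertical log axis) in every library, by tissue, with groups side by side (blue ground, red flight; filled WT, open Nrf2-KO) and a black line at each group mean. The order of tissues differs between most genes, and the points of Zbtb16 spread widely within single groups, for example from 1.37 to 24.0 TPM for Zbtb16 in Liv of FL_WT mice.

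Much of the spread within groups ran with the mouse number. Fkbp5 in Liv of GC_WT mice was 88.2, 73.7 and 67.1 TPM in mice 03, 05 and 06 and 48.4, 35.6 and 31.4 TPM in mice 07, 08 and 10. The same split was present in the flown mice, with 86.7, 89.2 and 96.8 TPM in mice 03, 05 and 06 of FL_WT and 36.3, 45.9 and 39.6 TPM in mice 07, 08 and 10. In FL_KO mice 01 and 02 stood at 118 and 116 TPM and mice 09, 11 and 12 at 48.0, 27.4 and 28.8 TPM. All 11 mice numbered 01 to 06 were thus above all 12 mice numbered 07 to 12, at 59.7 to 118 against 17.1 to 48.4 TPM. The labels do not say what the number stands for. The TpB library numbers divided at the same place, with 900001 to 900012 for mice 01 to 06 and 900145 to 900156 for mice 07 to 12. In Spl, Liv, eWAT, iBAT, Thy and Cbr the library numbers of flight and of ground mice ran on from mouse 06 to mouse 07 without a gap. This split was noticed in the values, so it is given as a description with no test, and the part of dissection order, time of day or library batch in it was not tested.

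Across the 7 tissues with 23 mice, mice 01 to 06 were all above mice 07 to 12 in 8 of 63 pairs of a member and a tissue, and in none the other way round. Among all genes tested, 0.117% of gene and tissue pairs separated the first way and 0.250% the other way. The 8 pairs were Fkbp5 in TpB, Spl, Liv, iBAT and Cbr, Zbtb16 in Spl and iBAT, and Tsc22d3 in Cbr. In 56 of the 63 pairs the fitted level was lower in mice 07 to 12, against 49.9% of pairs over all genes. Within single groups, mice 01 to 06 were all above mice 07 to 12 in 28 of 28 combinations of tissue and group for Fkbp5, 24 for Zbtb16, 22 for Tsc22d3, 19 for Klf9, 16 for Mt2, 15 for Sgk1, 10 for Mt1, 8 for Dusp1 and 2 for Nr3c1, beside 9.11% over all genes. The receptor gene leaned the other way, with mice 07 to 12 all higher in 9 of its 28 combinations, 4 of them in eWAT. The share over all genes within single groups was not computed for this direction.

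The size of the split differed between members and tissues. Zbtb16, the most divided, had a median of 22.7 TPM in mice 01 to 06 and 3.50 TPM in mice 07 to 12 in Liv, and of 37.4 against 5.74 TPM in iBAT, a ratio of 6.52. The ratio of medians for Fkbp5 ran from 1.44 in Thy to 3.52 in iBAT. Sgk1 had medians of 154 and 43.5 TPM in Cbr but 10.3 and 10.7 TPM in Liv. Mt2 in Liv stood at 73.9 against 15.4 TPM and was higher in mice 01 to 06 in each of the 4 groups, whereas Mt2 in Spl differed little, at 7.16 against 6.21 TPM. Dusp1 had ratios between 0.958 and 1.28 in the 7 tissues.

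**Figure D2:**
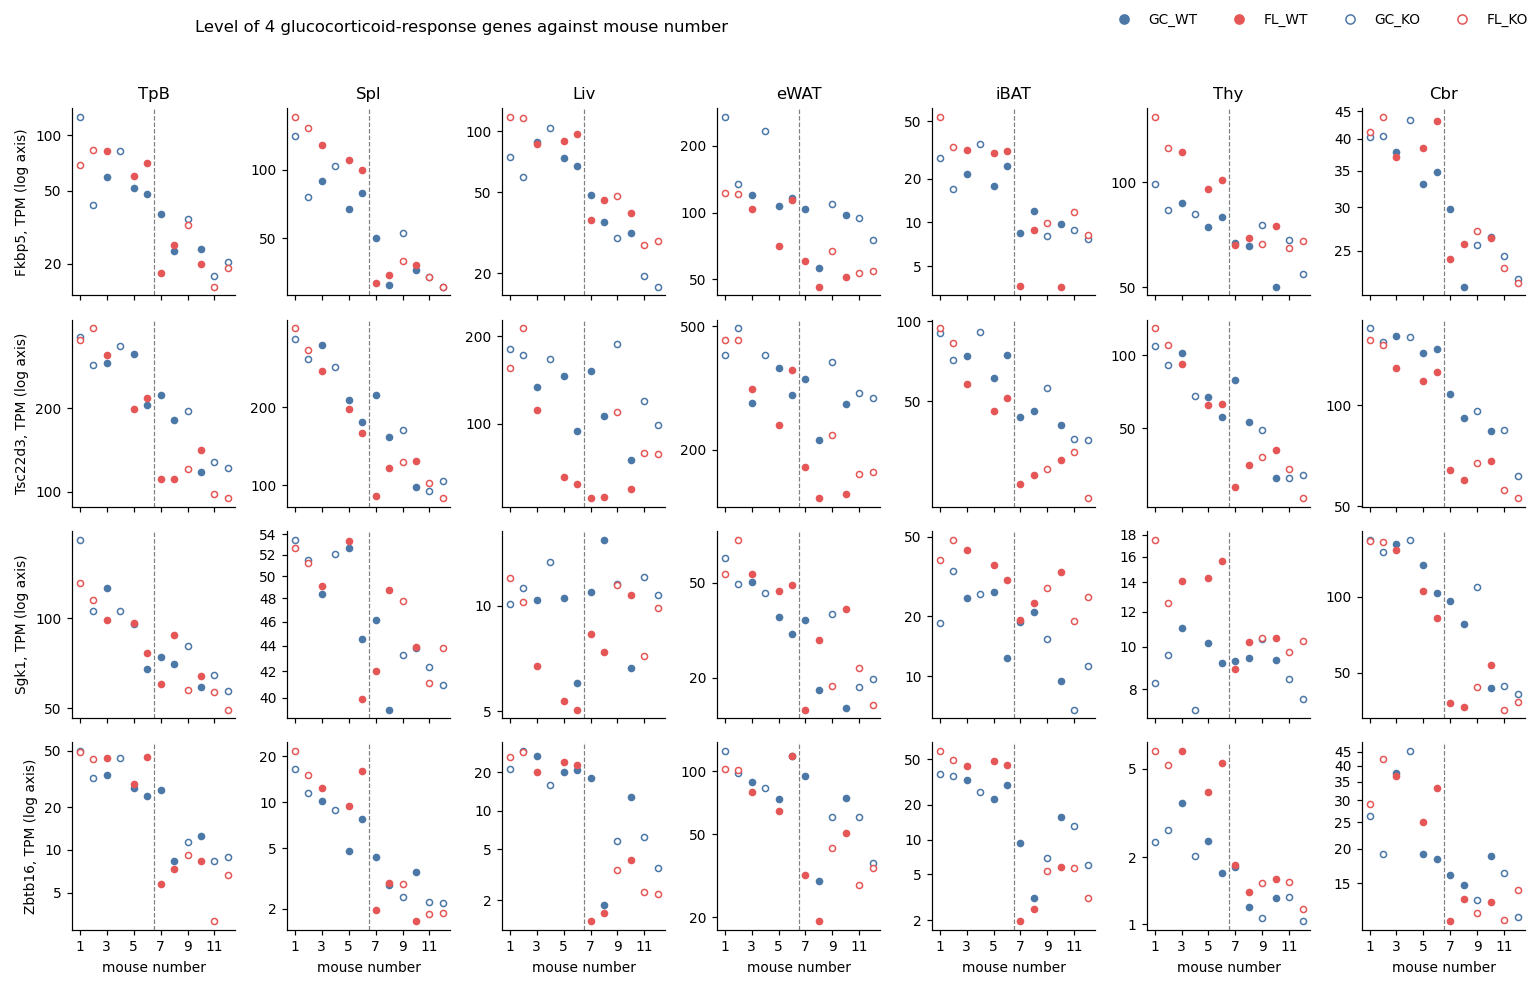
TPM of Fkbp5, Tsc22d3, Sgk1 and Zbtb16 (rows, vertical log axes) against mouse number (horizontal axis) in the 7 tissues with 23 mice (columns), coloured as before, with a dashed line between numbers 06 and 07. Levels are lower to the right of the line in most panels, as for Fkbp5 in Liv, where mice 01 to 06 lay at 59.7 to 118 TPM and mice 07 to 12 at 17.1 to 48.4 TPM in flight and ground mice alike. Sgk1 in Liv is an exception, with medians of 10.3 and 10.7 TPM.

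Some clock genes showed the split too, and the examples were chosen after their values were seen. Nr1d1, a repressor of the circadian clock, was at 10.1 to 25.7 TPM in Liv of mice 01 to 06 and at 1.04 to 7.0 TPM in mice 07 to 12. Arntl (Bmal1), its target, lay the other way in eWAT, at 0.920 to 13 against 10.2 to 34.1 TPM. Of 105 pairs of a clock gene and a tissue, 9 separated with mice 01 to 06 higher and 1 with mice 07 to 12 higher, and of 154 pairs of other glucocorticoid targets 9 and 0 did. None of the 81 pairs of immediate early genes, 56 pairs of receptor chaperones, 32 pairs of steroid enzymes and receptors or 32 pairs of acute phase genes separated either way. Of 39 pairs of metal handling genes, 1 separated, with mice 07 to 12 higher. Fitted levels were lower in mice 07 to 12 in 132 pairs of other glucocorticoid targets, 70 of clock genes and 62 of immediate early genes. The same held for 36 pairs of chaperones, 16 of steroid genes, 22 of acute phase genes and 22 of metal handling genes, beside 49.9% of pairs over all genes.

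The same mice were high in several tissues. With group means removed, the correlation of Fkbp5 between 2 tissues over 23 mice had a median of 0.914 over the 21 pairs of tissues, and only 2 of 11303 genes tested in the 7 tissues had a higher median. The medians were 0.913 for Zbtb16, 0.888 for Tsc22d3, 0.809 for Klf9, 0.752 for Sgk1 and 0.536 for Dusp1, against 0.0413 for all genes. Mt2 and Mt1 stood at 0.363 and 0.209, and Nr3c1 at -0.0735. When the mean of each number range within each group was removed as well, the medians were 0.643 for Tsc22d3, 0.512 for Fkbp5, 0.436 for Dusp1, 0.399 for Sgk1, 0.389 for Zbtb16 and 0.280 for Klf9, against 0.0267 for all genes, and 0.00547 for Mt1 and -0.0383 for Mt2. The tissues of a mouse share the animal, its dissection and its place in the handling, and these correlations are descriptions.

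Groups of 6 mice held 3 mice of each range and FL_KO held 2 and 3, so the ranges were nearly balanced in most comparisons. In MdB and Kid they were not. In MdB, all FL_WT mice were numbered 03 to 06 while 2 of the 3 GC_WT mice were 07 and 08, and in Kid 2 of 3 FL_KO mice but 1 of 3 in the other groups came from the low range. Each flight and genotype comparison was therefore also fitted with the number range as a further term, and that fit, added after the values had been seen, is given beside the main one.

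Flight was compared with ground control within each genotype and as the mean over both. In WT mice 6 of 81 pairs of a member and a tissue passed the test, 4 higher and 2 lower in flight, beside 3.23% of pairs higher and 3.32% lower over all genes. In Nrf2-KO mice 2 passed, 1 higher and 1 lower, beside 4.43% and 4.48%. For the mean flight effect 15 passed, 8 higher and 7 lower, beside 7.25% and 7.16%. With the number range as a term the counts were 15 in WT mice (8.42% over all genes), 10 in Nrf2-KO mice (10.6%) and 24 for the mean (16.6%), and these included every pair called without it. All adjusted p values are from edgeR's quasi-likelihood test with Benjamini-Hochberg adjustment over the genes of a tissue, and a pair was called under 0.05. Without that term no member was called in TpB, MdB, Spl, Kid or Cbr in these flight comparisons, and with it Dusp1 in Spl was called for the mean (+0.69, adjusted p = 0.0120).

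In eWAT the receptor gene fell with flight. Nr3c1 was at 48.9 to 62.2 TPM in GC_WT (median 57.3) and 41.3 to 55.2 TPM in FL_WT (median 46.1). The groups overlapped, since FL_WT mouse 07 at 55.2 TPM was within the GC_WT range, and within each number range every flown WT mouse was below every ground WT mouse. The log2 fold change in WT mice was -0.38 (SE 0.0921, adjusted p = 0.00847), beside 13.4% of all genes called in this comparison. In FL_KO mice 01, 02, 09, 11 and 12 it was 42.1, 47.8, 49.3, 50.7 and 52.6 TPM against 39.0 to 71.9 TPM in GC_KO (log2 fold change -0.23, adjusted p = 0.149), and the mean flight effect was -0.30 (SE 0.0668, adjusted p = 0.00212).

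The receptor gene was also called in iBAT and Thy for the mean flight effect. In iBAT the mean flight effect on Nr3c1 was +0.24 (SE 0.0899, adjusted p = 0.0376). Values were spread in FL_KO, where mice 01 and 02 had 14.3 and 17.6 TPM and mice 09, 11 and 12 had 29.3, 26.4 and 32.7 TPM, against 12.7 to 14.5 TPM in GC_KO. This call was lost without any 1 of 12 of the 23 libraries (adjusted p up to 0.0900), and on the log2(TPM + 1) scale, on which the median gene of iBAT was shifted by +0.33, the effect was +0.56 (adjusted p = 0.000141). In Thy the mean flight effect was -0.18 (SE 0.0715, adjusted p = 0.0426) on the normalized counts but +0.10 on the log2(TPM + 1) scale (adjusted p = 0.230), a scale on which the median gene of Thy was shifted by +0.20, and the call was lost without any 1 of 13 libraries.

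Fkbp5, the negative regulator of the receptor, fell in eWAT for the mean flight effect, by 0.71 on the log2 scale (SE 0.227, adjusted p = 0.0280). Among mice 07, 08 and 10 the levels were 103, 56.0 and 97.8 TPM in GC_WT and 60.4, 46.2 and 51.0 TPM in FL_WT. Mice 03, 05 and 06 had 119.7, 107 and 116 TPM in GC_WT and 104, 70.6 and 114 TPM in FL_WT. In FL_KO mice 01, 02, 09, 11 and 12 had 122, 121, 66.8, 53.4 and 54.6 TPM in eWAT. GC_KO mice 01, 02 and 04 had 271, 134 and 232 TPM and mice 09, 11 and 12 had 109, 94.7 and 75.4 TPM, so each flown Nrf2-KO mouse was below each ground Nrf2-KO mouse of its number range, while the WT mice overlapped in both ranges. The call was lost without FL_KO mouse 09, 11 or 12, GC_KO mouse 01 or 04 or FL_WT mouse 10 (adjusted p 0.0520 to 0.0592), and with the number range as a term the effect was -0.60 in WT mice (adjusted p = 0.0183) and -0.76 in Nrf2-KO mice (adjusted p = 0.00904).

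In Liv, the level of Fkbp5 in FL_KO against GC_KO was +0.30 (SE 0.495, adjusted p = 0.853). Liver was the tissue in which same-numbered Nrf2-KO mice deviated together, and with the number as a block the change was +0.54 (SE 0.116, adjusted p = 0.0177). That block was picked from correlations in these same data, and same-numbered mice are different animals, so the design does not give it. The low-numbered mice had 118 and 116 TPM in flight against 74.7, 59.7 and 103 TPM on the ground, and the high-numbered mice 48.0, 27.4 and 28.8 TPM against 29.7, 19.4 and 17.1 TPM.

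Tsc22d3, the GILZ gene, fell in Liv and iBAT for the mean flight effect. In Liv it stood at 75.1 to 152 TPM in GC_WT (median 120.3) and 55.2 to 111 TPM in FL_WT (median 60.6), and 5 of 6 flown mice were below every ground mouse. FL_WT mouse 03 was the exception, at 111 TPM. In FL_KO the values were 156, 214, 109, 79.3 and 78.7 TPM and overlapped the 98.8 to 188 TPM of GC_KO. The mean flight effect was -0.63 (SE 0.197, adjusted p = 0.0410), a call lost without any 1 of 15 of the 23 libraries (adjusted p up to 0.0769). With the number range as a term it was -0.66 (adjusted p = 0.00518). In iBAT the effect was -0.78 (SE 0.280, adjusted p = 0.0270), lost without FL_KO mouse 09 (adjusted p = 0.0514) or 11 (adjusted p = 0.0509), and -0.83 with the number range as a term (adjusted p = 1.92e-05). Within each range, each flown WT mouse in iBAT was below each ground WT mouse, at 58.1, 45.9 and 51.4 against 74.4, 61.1 and 74.4 TPM in mice 03, 05 and 06. In FL_KO the values were 94.3, 83.0, 27.8, 32.2 and 21.6 TPM, against 35.7 to 91.5 TPM in GC_KO. FL_KO mouse 01 was above the whole ground range and the high-numbered flown mice were below it.

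Of Sgk1 and Zbtb16, the first was called with flight in Liv, and with the number range as a term also in Thy. Sgk1 fell in Liv by 0.42 on the log2 scale for the mean flight effect (SE 0.127, adjusted p = 0.0343), from 6.02 to 15.4 TPM in GC_WT against 5.05 to 10.7 TPM in FL_WT. The groups overlapped, and the call was lost without any 1 of 10 libraries (adjusted p up to 0.0652). Zbtb16 passed the test in no tissue without the number term. With that term it was +0.45 in Thy for the mean flight effect (adjusted p = 0.00844), where it was at 1.19 to 3.52 TPM in GC_WT and 1.40 to 6.00 TPM in FL_WT.

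Dusp1, the MAP kinase phosphatase, rose in both fat depots. In iBAT it stood at 9.43 to 23.5 TPM in GC_WT (median 16.2) and 24.7 to 65.8 TPM in FL_WT (median 42.7), with no overlap. TPM ranges in iBAT carry the shift of the median gene given above for Nr3c1, and overlap on normalized counts was not tested. In WT mice the log2 fold change was +1.06 (SE 0.229, adjusted p = 0.00238), and this call was kept without each of the 23 libraries in turn. In FL_KO mice 01, 02, 09, 11 and 12 had 82.9, 49.3, 67.0, 58.0 and 73.1 TPM, all above the 30.4 to 44.1 TPM of GC_KO (log2 fold change +0.53, adjusted p = 0.0879), and the mean flight effect was +0.79 (SE 0.163, adjusted p = 0.000487). In eWAT Dusp1 was at 30.4 to 63.8 TPM in GC_WT (median 43.4) and 47.7 to 97.9 TPM in FL_WT (median 83.6), with overlap. The mean flight effect there was +0.53 (SE 0.170, adjusted p = 0.0274), lost without FL_KO mouse 01 (adjusted p = 0.0621) or 02 (adjusted p = 0.0525). In iBAT many genes changed, with 19.2% called in WT mice and 44.0% for the mean flight effect, and 3 of 9 members were called for the latter. Macrophage markers of iBAT were at 26.3 to 55.2 TPM in FL_KO and 12.5 to 23.5 TPM in GC_KO, and the part of these and of the skeletal muscle markers in the result was not tested.

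Klf9 fell in eWAT and rose in Thy. In eWAT it stood at 55.1 to 93.1 TPM in GC_WT (median 73.9) and 40.3 to 68.1 TPM in FL_WT (median 52.1). The groups overlapped, since FL_WT mice 03 and 06, at 68.1 and 57.5 TPM, were within the GC_WT range. The log2 fold change was -0.63 in WT mice (SE 0.144, adjusted p = 0.00555) and -0.52 in Nrf2-KO mice (SE 0.152, adjusted p = 0.0381), beside 13.4% and 7.71% of all genes called. The call in WT mice was kept without each library in turn, and that in Nrf2-KO mice was lost without any 1 of 8 (adjusted p up to 0.112). In iBAT it was not called (mean flight effect +0.03, adjusted p = 0.914). The mean flight effect in eWAT was -0.57 (SE 0.105, adjusted p = 0.000412), and 5 of 9 members were called there beside 22.0% of all genes, with a median change of -0.30 over the 9 members and -0.009 over all genes.

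In Thy, Klf9 stood at 12.8, 10.1 and 11.9 TPM in FL_WT mice 03, 05 and 06 and at 4.94, 4.92 and 7.10 TPM in mice 07, 08 and 10, against 3.79 to 6.17 TPM in GC_WT. The flown mice of the low range and mouse 10 were above every GC_WT mouse, and mice 07 and 08 were within their range. These TPM values carry the shift of the median gene of Thy given above for Nr3c1. FL_KO mice 01 and 02 had 12.1 and 9.80 TPM and mice 09, 11 and 12 had 6.59, 5.90 and 6.10 TPM, against 3.67 to 6.16 TPM in GC_KO, so that mice 01, 02 and 09 were above the ground range. The mean flight effect was +0.52 (SE 0.163, adjusted p = 0.0109). In Thy 48.7% of all genes were called for the mean flight effect and 3 of 9 members were, while cell type markers moved as well. The summed thymocyte markers stood at 2328 to 2851 TPM in FL_WT against 2784 to 3279 TPM in GC_WT and at 1899 to 2134 TPM in FL_KO against 1995 to 3090 TPM in GC_KO, with overlap in both genotypes. White adipocyte markers stood at 81.2 to 122 TPM in FL_WT against 45 to 76.2 TPM in GC_WT, without overlap, and at 48.3 to 119 TPM in FL_KO against 28.8 to 69.3 TPM in GC_KO, with overlap. Their part in the result was not tested.

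**Figure D3:**
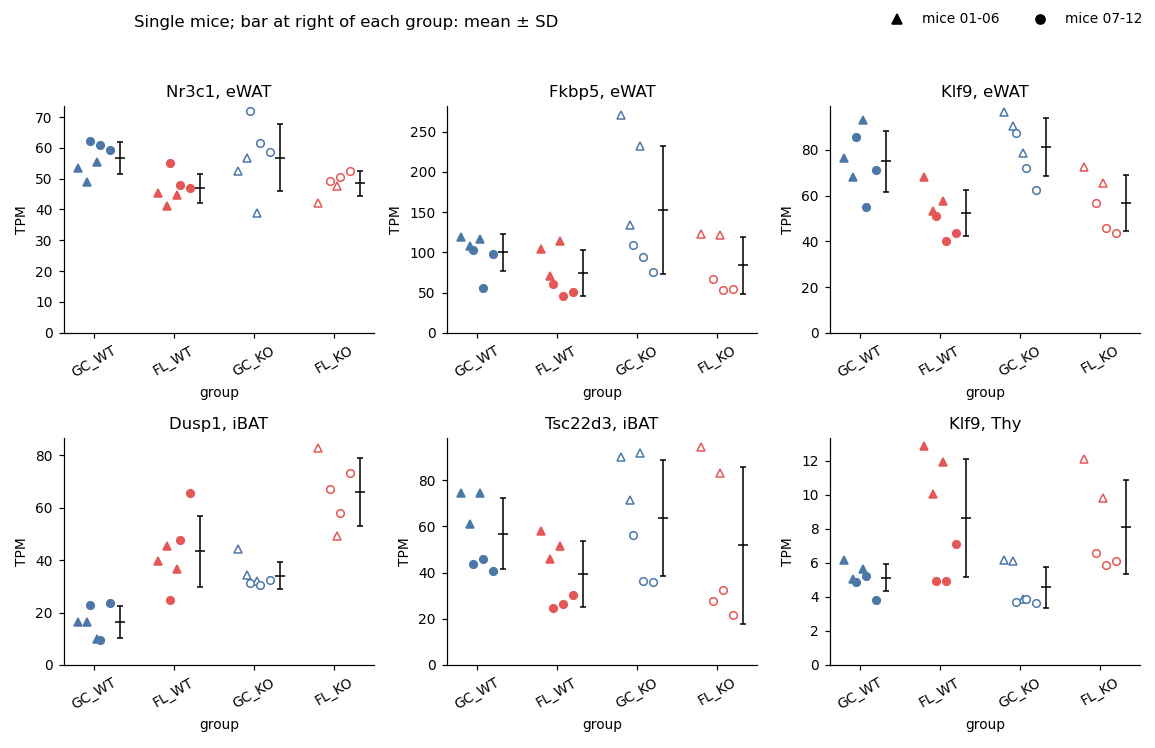
TPM of single mice (vertical axes from 0) for Nr3c1, Fkbp5 and Klf9 in eWAT, Dusp1 and Tsc22d3 in iBAT and Klf9 in Thy, by group (horizontal axes), with mice 01 to 06 as triangles, mice 07 to 12 as circles and the mean ± SD beside each group. Dusp1 in iBAT shows no overlap between GC_WT (9.43 to 23.5 TPM) and FL_WT (24.7 to 65.8 TPM), and the triangles lie above the circles within the groups for Fkbp5 and Tsc22d3.

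Mt1 rose in thymus in both genotypes. It stood at 22.1 to 34.4 TPM in GC_WT (median 31.0) and 34.7 to 72.2 TPM in FL_WT (median 50.7), with no overlap. TPM ranges in Thy carry the shift of the median gene given above for Nr3c1, and overlap on normalized counts was not tested. Within FL_WT, mice 03, 05 and 06 had 65.4, 72.2 and 63.4 TPM and mice 07, 08 and 10 had 34.7, 38.1 and 37.4 TPM, so that the high-numbered flown mice were just above the ground range. In FL_KO mice 01, 02, 09, 11 and 12 had 45.1, 34.6, 33.6, 37.4 and 37.4 TPM, all above the 19.5 to 27.7 TPM of GC_KO. The log2 fold change was +0.54 in WT mice (SE 0.155, adjusted p = 0.0147), beside 22.8% of all genes called, and +0.43 in Nrf2-KO mice (SE 0.171, adjusted p = 0.04997), beside 38.2%. The call in WT mice was lost without FL_WT mouse 05 (+0.39, adjusted p = 0.0664) and that in Nrf2-KO mice without any 1 of 15 of the 23 libraries. Mt2 was low in Thy, and in FL_KO it was at 7.57 to 13.5 TPM against 4.10 to 8.08 TPM in GC_KO (log2 fold change +0.54, adjusted p = 0.103).

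In eWAT both metallothioneins rose in WT mice. Mt2 stood at 94.1, 261 and 126 TPM in GC_WT mice 03, 05 and 06 and 583, 544 and 859 TPM in the FL_WT mice of these numbers. In mice 07, 08 and 10 it stood at 277, 139 and 262 TPM on the ground and 177, 355 and 476 TPM in flight. FL_WT mouse 07 was thus the only flown WT mouse inside the ground range of 94.1 to 277 TPM. The log2 fold change was +1.27 for Mt2 (SE 0.322, adjusted p = 0.0109), kept without each library in turn, and +0.67 for Mt1 (SE 0.216, adjusted p = 0.0425), lost without any 1 of 8 libraries (adjusted p up to 0.134). In Nrf2-KO mice Mt2 was at 245 to 652 TPM on the ground and at 371 to 776 TPM in flight. By edgeR its change there had an adjusted p of 0.583, and the difference between the genotypes' flight effects on Mt2 was -0.92 (SE 0.459, adjusted p = 0.609). The summed macrophage markers of eWAT were at 655 to 1149 TPM in FL_WT and 436 to 604 TPM in GC_WT, without overlap, and at 537 to 757 TPM in FL_KO against 489 to 689 TPM in GC_KO. Their part in the result was not tested.

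In Liv the metallothioneins spread over a wide range within groups. Mt1 stood at 53.7 to 117 TPM in GC_WT, and the FL_WT mice 03, 05 and 06 reached 244, 414 and 729.5 TPM, while mice 07, 08 and 10 had 68.1, 180.1 and 66.0 TPM. In FL_KO mice 01 and 02 reached 989.6 and 876 TPM and mice 09, 11 and 12 had 138, 92.5 and 140.0 TPM, against 348, 248 and 202 TPM in GC_KO mice 01, 02 and 04 and 66.0, 47.2 and 132 TPM in mice 09, 11 and 12. Each flown mouse of the low range was thus above each ground mouse of the low range in its genotype, and the high range overlapped. Mt2 was at 3.66 to 25.8 TPM in GC_WT and reached 209 TPM in FL_WT mouse 06 and 408 TPM in FL_KO mouse 01.

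The mean flight effect in Liv was +1.5 for Mt1 (SE 0.475, adjusted p = 0.0439) and +1.92 for Mt2 (SE 0.611, adjusted p = 0.0447). Leaving out any 1 of 14 libraries ended the call of Mt1 and any 1 of 15 that of Mt2 (adjusted p up to 0.104 and 0.105). With the number range as a term the effects were +1.19 (adjusted p = 0.00275) and +1.57 (adjusted p = 0.00140). In Liv 4 of 9 members were called beside 11% of all genes, namely Mt1, Mt2, Tsc22d3 and Sgk1. With the mouse number as a block, 6 members were called there, with Dusp1 (+0.39, adjusted p = 0.0451) and Fkbp5 (+0.33, adjusted p = 0.0136) in addition. That fit also gave 3 calls for FL_WT against GC_WT in Liv, where none was called without it. They were Mt1 (+1.32, adjusted p = 0.0374), Mt2 (+1.74, adjusted p = 0.0481) and Tsc22d3 (-0.86, adjusted p = 0.0113). The criterion for pairing, that every pair's deviations correlate over 0.1, was not met in WT mice, where 4 of 6 pairs did so. Same-numbered mice are different animals in both genotypes, so every call with this block rests on a pairing that the design does not give. The mean flight effect with this block includes the WT mice too. The share of all genes called with this block is not given here, and the 11% above is from the fit without it.

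**Figure D4:**
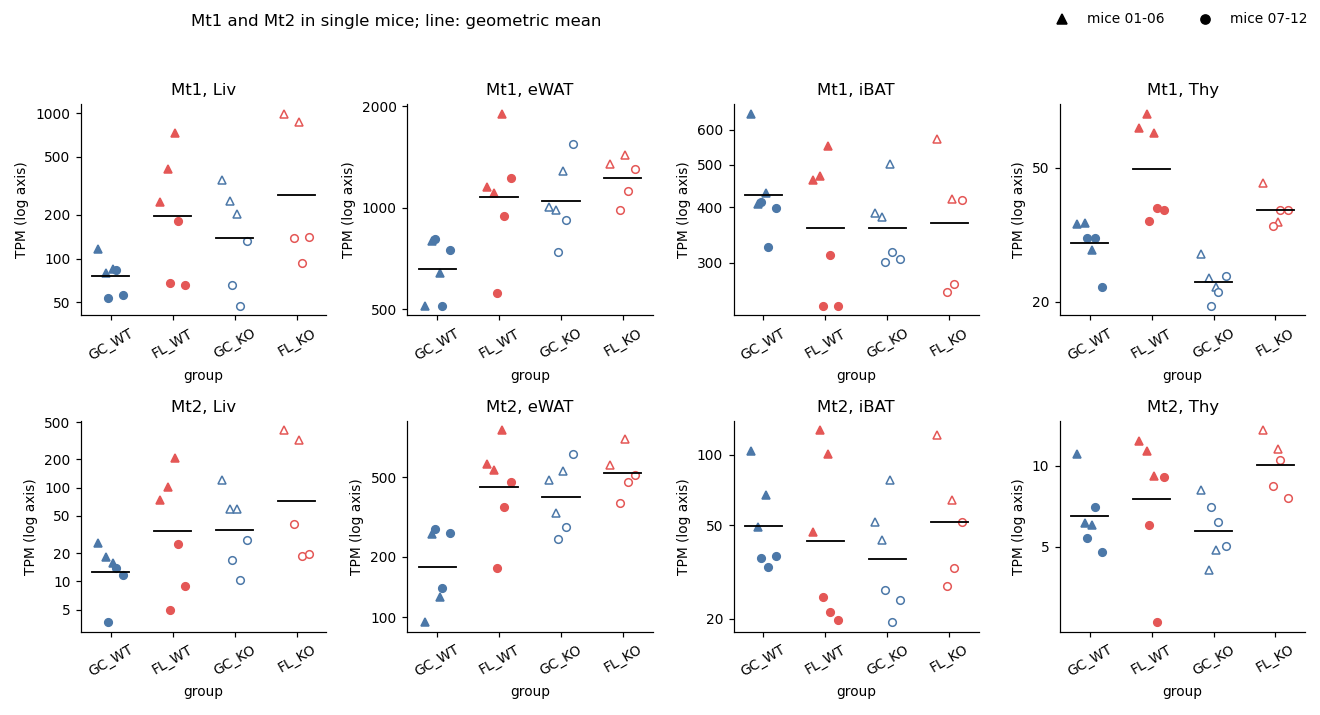
TPM of Mt1 and Mt2 in single mice (vertical log axes) by group in Liv, eWAT, iBAT and Thy, with mice 01 to 06 as triangles, mice 07 to 12 as circles and a line at the geometric mean. In Liv the flown triangles reach 989.6 TPM for Mt1 while the circles of FL_WT lie at 66.0 to 180.1 TPM, and in Thy every flown mouse is above every ground mouse of its genotype for Mt1.

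In iBAT Mt1 did not pass the test, with a mean flight effect of -0.43 (SE 0.189, adjusted p = 0.0696). With the number range as a term it was -0.44 (adjusted p = 0.00258). On the log2(TPM + 1) scale the effect was -0.11 (adjusted p = 0.565). FL_WT mice had 239.6 to 552 TPM against 325 to 651 TPM in GC_WT, and FL_KO mice had 258 to 570.1 TPM against 301 to 502 TPM in GC_KO. Over the 9 tissues, the pairs called on that scale were 7 higher and 1 lower in WT mice, 8 higher and 1 lower in Nrf2-KO mice and 12 higher and 4 lower for the mean. On that scale the calls of all genes for the mean also leaned strongly to higher values in iBAT and Thy, as counted in the last section. The upward lean is therefore not a trait of the members.

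**Figure D5:**
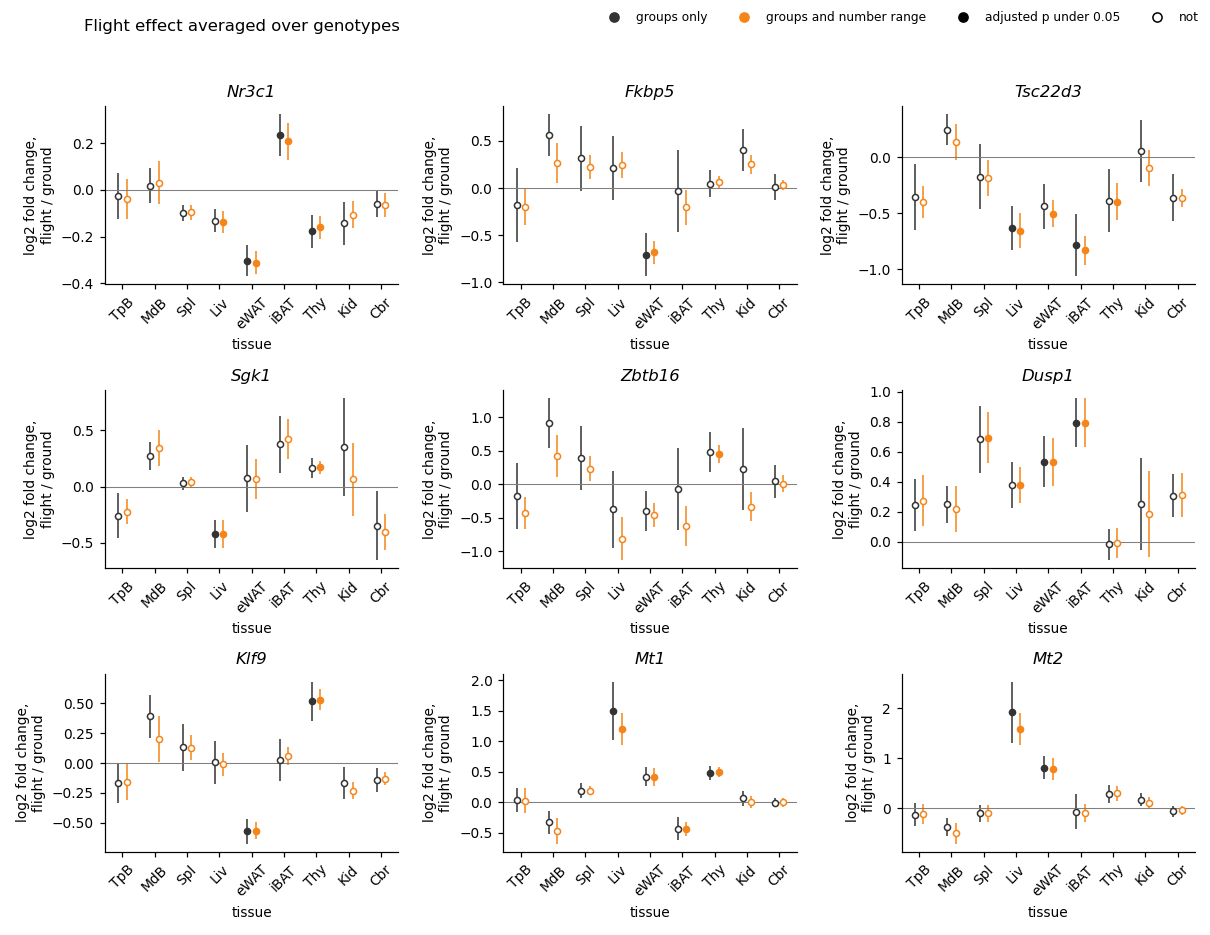
Log2 fold change of flight over ground, averaged over the genotypes (vertical axes), by tissue for each of the 9 genes, from the fit on the groups (black) and the fit with the number range as a further term (orange), with bars of 1 SE and filled points where the adjusted p was under 0.05. Filled black points appear in Liv, eWAT, iBAT and Thy, from -0.78 for Tsc22d3 in iBAT to +1.92 for Mt2 in Liv, and the orange bars are shorter for Fkbp5 in eWAT, where the SE is 0.227 without and 0.124 with the term.

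Genotype was compared on the ground and in flight. On the ground 1 of 81 pairs was called between GC_KO and GC_WT, a rise, beside 0.836% of pairs higher and 0.814% lower over all genes. It was Dusp1 in iBAT, at 30.4 to 44.1 TPM in GC_KO and 9.43 to 23.5 TPM in GC_WT with no overlap (log2 fold change +1.12, SE 0.229, adjusted p = 0.00886), where 2.14% of all genes were called. The call was kept without each library in turn. GC_WT is the control in both this comparison and the flight comparison in WT mice.

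In Kid, Mt1 was at 208, 186 and 219.9 TPM in GC_KO mice 02, 11 and 12 and at 126, 135 and 141 TPM in GC_WT mice 06, 07 and 10, without overlap. Its log2 fold change of +0.61 did not pass the test (SE 0.170, adjusted p = 0.133) but did with the number range as a term (+0.60, adjusted p = 0.0441), which gave 2 calls in all for this comparison beside 2.49% of all genes. Mt2 in Kid stood at 27.4, 29.8 and 33.7 against 25.3, 18.2 and 17.8 TPM (adjusted p = 0.339).

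In flight no pair was called between FL_KO and FL_WT by edgeR, DESeq2 or limma, 8 pairs had an unadjusted p under 0.05, and 1.35% of pairs over all genes were called. With the number range as a term 2 pairs were called, Tsc22d3 in Liv (+0.83, adjusted p = 0.0268) and Zbtb16 in Kid (+1.21, adjusted p = 0.0473). The share of all genes called with that term is not given here for this comparison. Zbtb16 in Kid shows how the ranges enter, at 13, 12.9 and 2.46 TPM in FL_KO mice 01, 02 and 11 and at 7.11, 0.670 and 0.820 TPM in FL_WT mice 05, 08 and 10. The difference between the flight effects of the genotypes passed the test for no member, with 0 of 81 pairs at an unadjusted p under 0.05, for no member by DESeq2 or limma, and for 0% of all genes. With the number range as a term 4 pairs had an unadjusted p under 0.05 and none was called.

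In MdB, where the number ranges were unbalanced, Fkbp5 stood at 17.6, 12.9 and 21.4 TPM in FL_WT mice 03, 05 and 06 and at 14.8, 8.13 and 6.03 TPM in GC_WT mice 03, 07 and 08. The log2 fold change by edgeR was +0.75 (adjusted p = 0.527), and +0.16 with the number range as a term. Only GC_WT held mice of both ranges in MdB. The value with the term therefore sets the FL_WT mice against GC_WT mouse 03 alone.

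Enzymes that make and break the receptor's hormone, and the receptors that bind it, were counted as a list. Of 44 pairs of a steroid enzyme or receptor gene and a tissue, 6 rose and 5 fell for the mean flight effect, beside 7.25% higher and 7.16% lower over all genes. Hsd11b1, which regenerates active glucocorticoid inside cells, rose in Liv (+0.44), eWAT (+0.55) and Thy (+0.18) and fell in iBAT (-0.76). Srd5a1, a steroid reductase that inactivates the hormone, fell in Liv (-0.54) and eWAT (-0.53), and Akr1d1, another such reductase, fell in Liv (-0.19). Nr3c2, the mineralocorticoid receptor, which binds the same hormone, rose in Thy (+0.66). H6pd, which supplies the cofactor of Hsd11b1, rose in Spl (+0.20) and eWAT (+0.17) and fell in iBAT (-0.42). On the ground Nrf2-KO kidneys had less Hsd11b1 (-0.77) and more Hsd11b2 (+0.53), the inactivating enzyme, and Srd5a1 was higher in eWAT (+0.87). None of the 72 pairs of receptor chaperone genes was called for the mean flight effect.

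Of 196 pairs of other known receptor targets, 20 rose and 11 fell for the mean flight effect, beside 7.25% higher and 7.16% lower over all genes, and in iBAT and Thy 44.0% and 48.7% of all genes were called. Angptl4, a lipase inhibitor, rose in Spl (+0.99), Thy (+0.74), eWAT (+0.92) and iBAT (+1.19), and Anxa1, an anti-inflammatory annexin, rose in eWAT (+0.68) and iBAT (+0.66). In Thy the calls with the smallest adjusted p also held Bcl6, a transcriptional repressor (-0.37), Sesn1, a stress-induced sestrin (-0.32), and Mertk, a receptor for the uptake of dying cells (+0.47). In iBAT they held Sesn1 (-0.59) and Rhob, a small GTPase (-0.85), and in eWAT Pdk4, which holds back glucose oxidation (+1.27), and Rgs2, a regulator of G protein signalling (-1.02). Crispld2 rose in Spl (+0.49). In Liv, Ddit4, an inhibitor of mTOR signalling, fell (-0.98), as did Tat (-0.74), the tyrosine aminotransferase.

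Of 105 pairs of immediate early genes 23 rose and 2 fell, beside the same shares over all genes. Fos rose in Spl (+1.18), eWAT (+1.40) and iBAT (+1.82), Fosb in eWAT (+0.99) and iBAT (+1.86), Egr1 in eWAT (+0.89) and iBAT (+1.24) and Egr2 in iBAT (+1.36). Jun rose in Liv (+1.01), Spl (+0.25) and Thy (+0.26), and Ier2 (+0.16) and Junb (+0.10) in Spl. Btg2 fell in Thy (-0.39) and rose in eWAT (+0.25), and Ier3 (+0.58) and Nr4a1 (+0.24) rose in Thy. Clock genes gave 9 higher and 8 lower of 135 pairs, a share below that over all genes in both directions. In eWAT the output genes Hlf (-0.80), Tef (-0.79) and Dbp (-1.45) and the period gene Per3 (-0.98) fell. The direction differed by tissue, since Per3 (+0.56) and Tef (+0.24) rose in Thy, while Per3 fell in iBAT (-0.75). In Liv Nfil3 rose (+0.50) and Cry2 fell (-0.20). Acute phase genes gave 7 higher and 6 lower of 38 pairs, with Saa2 (-1.85), Orm1 (-0.84) and Saa1 (-1.37) lower and Hp (+0.50) higher in Liv. These means hide a difference between genotypes for the Saa genes. In WT mice Saa1 (-0.34) and Saa2 (-0.58) were not called with flight in Liv, while in Nrf2-KO mice both were (-2.39 and -3.11). On the ground both were higher in GC_KO than in GC_WT livers (+2.34 and +1.95, both called). The difference between the genotypes' flight effects was called for neither. Saa1 and Saa2 are near copies of each other, so the split of reads between them is uncertain. Directions are those of the normalized counts, on which the median change of all genes was 0.032 in iBAT and 0.01 in Thy, and these lists were not recomputed on the TPM scale.

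Of 50 pairs of metal handling genes beside Mt1 and Mt2, 3 rose for the mean flight effect and none fell, all in Thy, where 48.7% of all genes were called. They were Slc39a4 (+0.53) and Slc39a10 (+0.11), which import zinc, and Slc30a1 (+0.14), which exports it. None was called in Liv or eWAT, where Mt1 or Mt2 rose.

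Within number ranges and groups, several members varied together from mouse to mouse. Because the mice fell into the 2 ranges, correlations were taken within each range, with group means removed and an exact permutation of mice within groups, over 56 relations. Mt1 and Mt2 ran together in TpB in mice 01 to 06 (r = 0.993, rho = 0.982, n = 11, exact permutation p = 0.00463, adjusted p = 0.0370) and mice 07 to 12 (r = 0.909, rho = 0.783, n = 12, exact permutation p = 0.00463, adjusted p = 0.0370). They did so in eWAT of mice 07 to 12 (r = 0.985, rho = 0.972, exact permutation p = 0.000772, the smallest these permutations can give, adjusted p = 0.0216) and in Liv of mice 01 to 06 (r = 0.942, rho = 0.845, exact permutation p = 0.00463, adjusted p = 0.0370). In Spl their r was -0.200 and -0.00115 in the ranges (exact permutation adjusted p = 0.899 and 0.998). Without the 2 mice farthest from the median of Mt1, the 4 named values were 0.989, 0.921, 0.971 and 0.896. TpB libraries differed widely in skeletal muscle markers, and the part of tissue content in the TpB correlations here and below was not tested.

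Fkbp5 and Tsc22d3 ran together in eWAT of mice 07 to 12 (r = 0.878, rho = 0.937, exact permutation p = 0.000772, adjusted p = 0.0216, r = 0.845 without the 2 farthest mice) and in iBAT of mice 01 to 06 (r = 0.752, rho = 0.70, exact permutation p = 0.00463, adjusted p = 0.0370, r = 0.652 without them). Fkbp5 and Zbtb16 did so in TpB of mice 07 to 12 (r = 0.836, rho = 0.881, exact permutation p = 0.00309, adjusted p = 0.0370, r = 0.836 without them). By rank, the adjusted p values of these 7 relations ran from 0.0216 to 0.112, with the 2 named at 0.0216 under 0.05. Dusp1 and Sgk1 passed in none of their 14 relations.

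The genes whose means over the 36 combinations of tissue and group were most like a member's, with each tissue centred, were Ddit4, Pdhx and Thrsp for Tsc22d3 (r = 0.848, 0.813 and 0.798), Per1, Sult1a1 and Mknk2 for Zbtb16 (0.804, 0.750 and 0.728) and Pla1a, Myo6 and Asph for Klf9 (0.843, 0.740 and 0.736). For Dusp1 they were Cyr61, Gm38431 and Spry4 (0.799, 0.794 and 0.782), for Fkbp5 Map3k6, Hacd3 and Zhx3 (0.721, 0.689 and 0.688) and for Sgk1 Noct, Prkch and Slc7a5 (0.731, 0.712 and 0.70). For Nr3c1 they were Rnf13, Med14 and Polr2b (0.745, 0.743 and 0.737), for Mt1 H2afy2, Pced1a and Anapc10 (0.777, 0.746 and 0.715) and for Mt2 Tubgcp2, 1700047I17Rik2 and Nt5c2 (0.704, 0.698 and 0.673). These are the highest values among 11230 genes and are descriptions.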

How the data were processed

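RNA-seq of 9 tissues was deposited as 1 table. The authors aligned 76-cycle strand-specific single reads to mm10 with STAR 2.6.1 and estimated expression with RSEM 1.3.1, and they deposited expected counts and TPM per gene. The 192 FPKM columns were not used. Thymus libraries were ribosome-depleted, the others poly(A). Groups come from the labels, and flight mouse 04 was left out.

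Expected counts were rounded (6.01% were not whole) and tested in each tissue with edgeR 4.0.16 (quasi-likelihood test, filterByExpr, TMM, R 4.3.3), with all 4 groups in 1 fit and Benjamini-Hochberg adjustment over the genes of the tissue, called under 0.05. The steps were tested on simulated data. Levels are deposited TPM. Depth limits low genes, and p values measure the spread between mice. Alternatives were limma 3.58.1 on TPM (log2 with a pseudocount of 1 or 0.1), DESeq2 1.42.0, RLE factors, no filter, mouse 04 included, only the compared groups, a library set term in TpB, the mouse number as a block, and each mouse left out. The number range (01 to 06 against 07 to 12) as a term and the split of correlations by range were added after the values had been seen. The members and lists were chosen with earlier results of these data known. All members were described, and of the other lists at most 4 called genes per list and tissue, by smallest adjusted p, and any steroid enzyme or receptor. Clock and acute phase genes are named for the mean flight effect in eWAT or Liv and given as counts elsewhere. Per3 and Tef are also named in other tissues, to show their direction there.

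Numbers were taken to pair mice where, with 3 or more pairs, each pair's deviations from the group means correlated over 0.1. This held in Liv of Nrf2-KO mice (5 pairs, 0.222 to 0.369), although same-numbered mice are different animals. Gene positions are GENCODE vM21 on GRCm38, and promoters are from RefSeq, where 7 of the 9 members were matched or used.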

Additional observations from a re-analysis of the deposited data

Results flagged for a closer look

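In 9 of 252 groups of 4 to 6 mice, the highest or lowest mouse stood apart from the rest by Dixon's criterion, which chance meets in about 1 in 20 groups. In GC_WT, mouse 03 was high for Zbtb16 in Cbr (37.8 TPM against 14.8 to 19.2 in the others), Klf9 in Cbr (192.8 against 132.8 to 152.7), Mt1 in iBAT (651.1 against 325.3 to 431.7) and Mt2 in Thy (11.05 against 4.78 to 7.03). GC_WT mouse 08 was high for Nr3c1 in iBAT (23.62 TPM against 14.79 to 16.63) and low for Fkbp5 in eWAT (55.98 against 97.79 to 119.7). FL_WT mouse 03 was high for Tsc22d3 in Liv (111.1 TPM against 55.19 to 65.26), FL_WT mouse 08 for Mt2 in Spl (8.99 against 6.02 to 7.02) and GC_KO mouse 01 for Dusp1 in iBAT (44.14 against 30.44 to 34.19).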

How the results depend on the processing

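Of 752 values of the 24 called pairs under the alternatives, 750 kept their direction and 2 reversed, both for Nr3c1 in Thy for the mean flight effect (0.104 on log2(TPM + 1) and 0.106 on log2(TPM + 0.1)). The count of pairs called for FL_KO against GC_KO, 2 as reported, was 9 on both TPM scales, 1 with RLE factors, 0 with no filter on low counts and 10 with the number range as a term. For FL_WT against GC_WT it was 15 with that term, for GC_KO against GC_WT 2 with that term, 3 with DESeq2 and 2 with no filter or only the compared groups, for FL_KO against FL_WT 2 with that term, and for the mean flight effect 24 with it. Leaving out 1 mouse gave 4 to 7 calls for FL_WT against GC_WT, 0 to 3 for FL_KO against GC_KO (0 without FL_KO mouse 09, 11 or 12 or GC_KO mouse 02 or 09), 1 to 2 for GC_KO against GC_WT, 0 to 1 for FL_KO against FL_WT and 9 to 14 for the mean flight effect (9 without GC_WT mouse 05). The cause was not tested. On log2(TPM + 1) the split of all genes called for the mean flight effect was 7803 higher and 681 lower in iBAT, against 3163 and 2806 on the normalized counts, and 8580 and 481 in Thy, against 4093 and 3841.

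With the mouse number as a replicate block, 16 pairs were called for FL_WT against GC_WT, 8 for FL_KO against GC_KO and 25 for the mean flight effect. The shares of all genes called with this block are not given here, so these counts are not read as a result about the members. Same-numbered mice are different animals in every tissue, Liv of Nrf2-KO mice included. Outside Liv of Nrf2-KO mice the criterion for pairing was not met either, since not every pair correlated over 0.1 or fewer than 3 pairs existed. Depth was lowest in Thy.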
